A study of Homo sapiens with 2 samples.

Results

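NGFR-positive melanoma cells were described in 2 single-cell RNA sequencing libraries of the human melanoma line A375. The cells were selected on their own NGFR count: a cell was NGFR-positive when its barcode held at least 1 NGFR UMI, at least 5000 UMIs in all and at most 20% mitochondrially encoded UMIs, where a UMI is 1 distinct RNA molecule counted. Barcodes with at least 3 of the T cell genes CD2, CD3D, CD3E, CD52, PTPRC and TRAC were left out first. This gave 945 NGFR-positive cells of 14991 compared cells and 17895 barcodes. The parental library, from untreated A375 cells, held 440 NGFR-positive cells of 9094. The CTL persister library held 505 of 5897, and came from A375 cells that outlived 15 days of contact with NY-ESO-1-specific killer T cells (CTLs). The persister medium held 7.5 ng/mL interleukin 2 and CTLs were renewed every 3 days, while for the parental cells no interleukin 2 is named either way. Both libraries come from 1 cell line and each group has 1 library, so every difference below describes these 2 libraries and has no replicate check. No test was run, and the 95% intervals cover counting error only.

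NGFR, also called p75NTR or CD271 (chromosome 17, 49495293 to 49515017, plus strand, GRCh38), is a cell surface receptor of the TNF receptor superfamily. It binds neurotrophins, and acts with co-receptors such as sortilin. In the neural crest it marks migratory stem cells, and melanocytes derive from that crest. In melanoma, NGFR is known as a marker of a dedifferentiated, neural crest stem-like state with low melanocyte pigment genes that has been linked to tolerance of targeted drugs and of T cells.

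NGFR was detected in 4.84% of parental cells (interval 4.41 to 5.30%) and in 8.56% of persister cells (7.86 to 9.31%). These shares depend on depth, since persister cells had a median of 11940 UMIs and parental cells 8164. With the UMIs of every cell sampled down to 5000 (thinned), the shares were 2.62% (2.30 to 2.97%) and 3.78% (3.31 to 4.30%), intervals that do not overlap. Thinning kept an NGFR UMI in 54.1% of the parental and 44.2% of the persister NGFR-positive cells. T cell barcodes, which should lack melanoma RNA of their own, gave 1 cell with an NGFR UMI of 176 (0.568%, median 3305.5 UMIs). Among the 45 T cell barcodes with at least 5000 UMIs it was 1 (2.22%, 0.0562 to 11.8%, median 8569 UMIs), and 0 after thinning, which allows a share of up to 6.67%. So few T cell barcodes leave the background of free RNA loosely bounded.

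Within each library the share of NGFR-positive cells was higher in deeper cells. In parental cells it was 3.44% from 5000 up to 7500 UMIs and 25% at 25000 UMIs or more, where only 24 cells lay. In persister cells it was 2.81% and 20.4% in the same ranges. The level of NGFR itself, in UMIs per 1000000 UMIs of the cells (CPM), differed less: parental cells held 5.64, 5.14, 6.18, 6.25 and 10.9 CPM from the shallowest to the deepest range, and persister cells 4.62, 5.77, 9.29, 9.12 and 8.89 CPM. Persister cells thus lay above parental cells from 10000 up to 25000 UMIs, with intervals of 8.21 to 10.5 against 5.20 to 7.30 CPM from 10000 up to 15000 UMIs. Just inside the depth limit, from 5000 up to 6000 UMIs, the share was 2.68% in parental barcodes (36 of 1345, 1.88 to 3.69%). In persister barcodes it was 4.67% (7 of 150, 1.90 to 9.38%). Just outside it, from 4000 up to 5000 UMIs, it was 2.54% (19 of 749, 1.53 to 3.93%) and 3.61% (6 of 166, 1.34 to 7.70%). The intervals of the libraries overlap in both ranges, and few persister barcodes lay there.

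**Figure D1:**
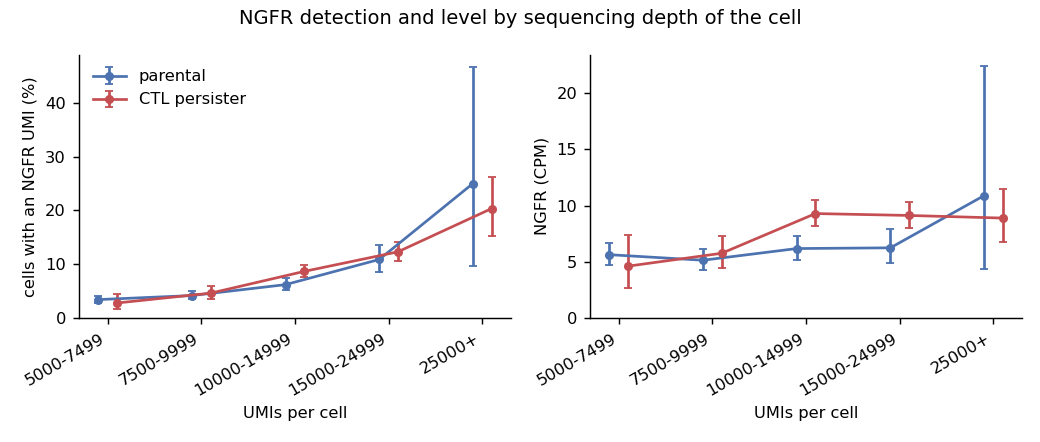
Share of cells with at least 1 NGFR UMI (left, percent) and NGFR level (right, CPM) by UMIs per cell, with points for each library and bars for 95% counting intervals. The share climbs with depth in both libraries, from 3.44 to 25% in parental and from 2.81 to 20.4% in persister cells, and the CPM varies less.

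Most NGFR-positive cells held a single NGFR UMI. In the parental library 408 cells had 1 UMI, 31 had 2 and 1 had 5. In the persister library 395 cells had 1 UMI, 77 had 2, 26 had 3, 6 had 4 and 1 had 5. Cells with 2 or more made up 7.27% of the parental (5.03 to 10.1%) and 21.8% of the persister NGFR-positive cells (18.3 to 25.6%). A cell without an NGFR UMI may still express the gene, so an NGFR-negative cell means here only that none was seen.

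To set depth aside, each NGFR-positive cell was compared with the 3 unused NGFR-negative cells of its library that were nearest in total UMIs, 1320 parental and 1515 persister cells. Median depth was then 9274.5 UMIs on both sides in the parental library, and 14247 against 14254 in the persister library. The mitochondrially encoded share had a median of 5.79% in NGFR-positive and 5.88% in matched negative parental cells, and of 7.25% and 7.57% in persister cells. After thinning, parental cells held a median of 2032 and 2028 genes and persister cells 1979 and 1931. Sums of raw UMIs were turned into CPM, a gene was called measured when the mean of its 2 CPM was at least 10, and a log2 fold is the difference of log2(CPM + 1), so low genes have folds drawn towards 0. The 2 libraries share 38 barcode sequences, which hold 2 parental and 3 persister NGFR-positive cells.

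Melanoma markers were found in the NGFR-positive cells of both libraries. Of 20 such markers, 15 were measured in each library. TYR and MLANA, which make and package pigment, had 0 UMIs in the NGFR-positive cells of both libraries. Against matched negative cells, 0 of the 15 passed 1.5-fold in either direction in parental cells (0.134% of all measured genes higher, 0.16% lower). In persister cells 1 was at least 1.5-fold higher and 3 were lower, against 1.95% and 1.43% of all measured genes. The median log2 fold was -0.02 in parental and -0.17 in persister cells. SOX10, the neural crest and melanocyte lineage factor, was 99.6 against 100.2 CPM in parental and 149 against 180 CPM in persister cells (NGFR-positive against matched negative). The 15 T cell markers summed to 32 UMIs in parental NGFR-positive cells, of which TRAC gave 22 and TRBC2 8, at 6.82 against 3.20 CPM in matched cells. CD2, CD3D, CD3E, CD3G, PTPRC, CD8A and CD8B were at 0 there, and the parental library had 0 T cell barcodes. In persister NGFR-positive cells these markers summed to 9.84 against 13.4 CPM, with CD3D, CD3E, CD3G, CD8B, CD5 and LCK at 0. The 12 cytotoxic effector genes summed to 7.95 against 4.74 CPM (ratio 1.68, 1.21 to 2.30, from 63 and 112 UMIs), with GZMA, GZMH, GZMK and PRF1 at 0. The part of T cell RNA in the differences below was not tested. Doublets were not called or removed.

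NGFR-positive persister cells differed from their matched negative cells far more than parental ones did. In the persister library 145 of 7431 measured genes exceeded their matched level by 1.5-fold or more (1.95%) and 106 lay as far below it (1.43%). For parental cells 10 of 7485 genes exceeded it (0.134%) and 12 lay below (0.16%). The median log2 fold over all measured genes was 0.01 in parental and 0.04 in persister cells. When only cells with at least 2 NGFR UMIs counted as positive, the persister counts were 355 higher and 274 lower. For parental cells, where this left 32, they were 884 and 710.

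Among the genes higher in persister NGFR-positive cells were ANKRD1, THBS1 and CAV1. ANKRD1, a nuclear ankyrin repeat protein and a classical target of the YAP coactivator (chromosome 10, 90912096 to 90921276, minus strand), was 46.6 CPM against 12.9 CPM, a ratio of 3.60 (3.08 to 4.20). Its parental levels were 21.7 and 13.6 CPM, a ratio of 1.60 (1.246 to 2.05), so it was higher in NGFR-positive cells of both libraries. THBS1, thrombospondin 1, a secreted matrix glycoprotein (chromosome 15, 39581079 to 39599466, plus strand), was 377 against 135 CPM in persister and 430 against 340 CPM in parental cells. Persister NGFR-negative cells were the low group for THBS1, while the other 3 sets of cells lay between 340 and 430 CPM. CAV1, caveolin 1, the coat protein of caveolae (chromosome 7, 116524785 to 116561184, plus strand), was 83.4 against 30.2 CPM in persister cells and 481 against 388 CPM in parental cells. The persister NGFR-positive cells held more CAV1 than their negative neighbours and still far less than either parental set.

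YAP and TEAD form a transcription complex that responds to cell shape and tension: YAP binds TEAD factors, which recognise the DNA motif CATTCC. A 22-gene signature of its targets was chosen after the leading genes had been seen, so it is not independent of them. Of its 16 measured members, 7 were higher by 1.5-fold or more in persister NGFR-positive cells and 1 was lower, against 1.95% and 1.43% of all measured genes, with a median log2 fold of 0.36. Besides ANKRD1 they included CYR61, a matricellular protein, at 123 against 51.1 CPM, CTGF, its relative, at 25.1 against 15.3 CPM, and AMOTL2, an angiomotin-like protein that binds YAP, at 68.1 against 36.6 CPM. MYOF, the membrane repair protein myoferlin, was 162 against 99.5 CPM, and CRIM1, a membrane protein that binds BMPs, 53.8 against 33.9 CPM. NUAK2, a kinase, was the lower member, at 7.19 against 14.4 CPM. Among parental cells 1 of 17 measured members, ANKRD1, was at least 1.5-fold higher, against 0.134% of all genes, with a median log2 fold of 0.16. CYR61 did not share the direction there, at 23.2 against 26.7 CPM.

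Bases upstream of ANKRD1, CTGF and THBS1 are shown, of which THBS1 is not in the signature. They were chosen because the genes were higher together and their promoters hold the TEAD motif, with CATTCC or its reverse complement GGAATG in capitals. The sequences are from RefSeq on GRCh38.p14, 5′ to 3′ on the strand of the gene, and end before the start annotated in RefSeq and in GENCODE 29. They lie at chr10:90921277-90921337 on the minus strand for ANKRD1, chr6:131951374-131951622 on the minus strand for CTGF (CCN2 in RefSeq) and chr15:39580829-39581078 on the plus strand for THBS1.
ANKRD1: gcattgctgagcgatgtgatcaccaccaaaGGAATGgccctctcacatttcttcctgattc
CTGF: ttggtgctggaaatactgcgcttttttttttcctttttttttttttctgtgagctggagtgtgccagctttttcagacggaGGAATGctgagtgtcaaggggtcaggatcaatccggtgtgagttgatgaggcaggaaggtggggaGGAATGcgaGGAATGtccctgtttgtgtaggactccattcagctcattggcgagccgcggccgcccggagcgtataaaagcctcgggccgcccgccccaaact
THBS1: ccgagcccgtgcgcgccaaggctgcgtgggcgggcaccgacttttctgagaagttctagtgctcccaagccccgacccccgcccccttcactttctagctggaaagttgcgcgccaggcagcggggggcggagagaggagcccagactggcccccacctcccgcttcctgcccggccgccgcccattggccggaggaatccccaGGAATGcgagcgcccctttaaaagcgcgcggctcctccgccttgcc
CTGF holds the motif 3 times, beginning 169, 104 and 95 bases before its RefSeq start, and THBS1 1 time, 46 bases before it. Over the 250 bases upstream of the start, 6 of the 16 signature members with an entry held the motif on either strand (37.5%), as did 4175 of all 35116 windows (11.9%). The motif did not follow direction among the members named above. AMOTL2 and MYOF, which were higher, lacked it in this window, and NUAK2, the lower member, held it on both strands. A match describes the letters in the window and is not evidence of binding.

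**Figure D2:**
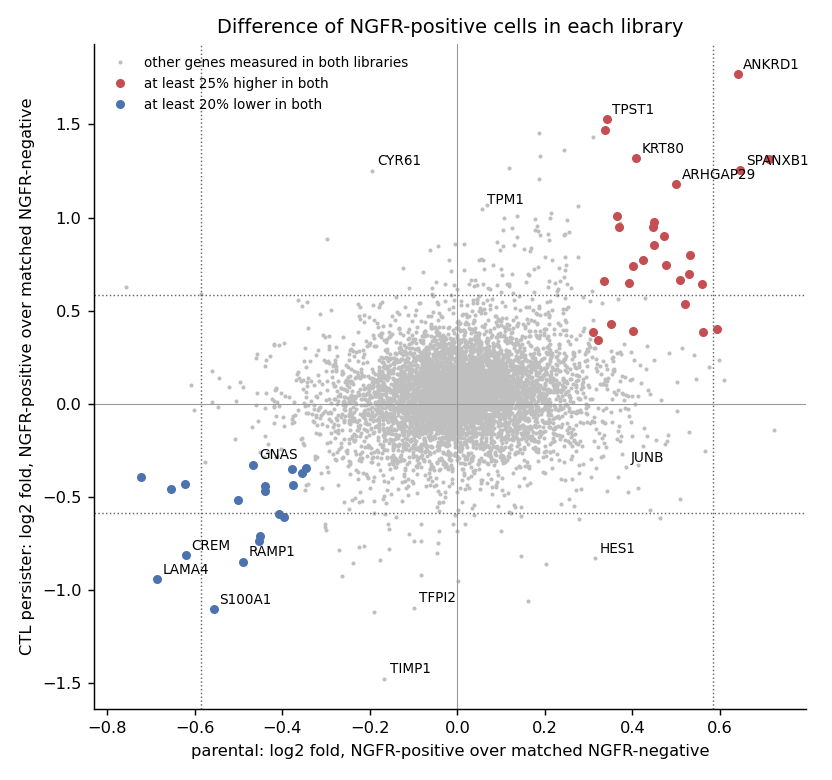
Log2 fold of NGFR-positive over matched NGFR-negative cells in the parental library (horizontal axis) and the CTL persister library (vertical axis) for 6792 genes measured in both, with dotted lines at 1.5-fold. The persister axis spreads wider, ANKRD1 stands at the upper right (0.64 and 1.77), and TIMP1 lies low on the persister axis only (-0.17 and -1.48).

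Actin-binding and keratin genes were next examined in the persister library. TPM1, a tropomyosin that coats actin, was 229 against 110 CPM (log2 fold 1.04), and 767 against 738 CPM in parental cells. CNN3, a calponin, was 149 against 82.1 CPM. Both were among the 3 of 16 measured SRF and actin targets at least 1.5-fold higher, none was as far lower, and the median of that list was 0.10. Over all measured genes 1.95% were that far higher and 1.43% lower. Of 7 measured keratins, the intermediate filament proteins of epithelia, 4 passed 1.5-fold upwards and 0 downwards, against the same shares, and the list's median log2 fold was 0.74. KRT80 was 81.9 against 32.2 CPM, KRT81 305 against 151 CPM, KRT7 122 against 60.5 CPM and KRT14 57.4 against 33.9 CPM. In parental cells the keratin median was 0.21, with KRT80 at 48.4 against 36.2 CPM and KRT81 at 99.6 against 77.0 CPM. Genes of the cornified envelope, the outer layer of the epidermis, went the other way in persister cells. All 3 measured of 13 were at least 1.5-fold lower, with a median log2 fold of -0.997. They were LCE1E, a late envelope protein, at 49.5 against 99.7 CPM, SPRR2D, a small proline-rich protein, at 264 against 481 CPM, and LYPD3. LYPD3 is a surface protein and was itself among the 10 genes with the lowest persister fold, so its direction was known when the list was made. These 3 lists were chosen after the leading genes had been seen.

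Secreted and metabolic genes were also among the 10 with the largest persister fold. TPST1, which sulfates tyrosines of secreted proteins, was 104 against 35.4 CPM. IGFBP4, an IGF-binding protein, was 85.2 against 30.5 CPM, and NNMT, nicotinamide N-methyltransferase, 245 against 94.5 CPM. TXNRD2, the mitochondrial thioredoxin reductase, was 58.2 against 22.5 CPM. MMP9, a matrix metalloprotease, was 29.3 against 10.9 CPM in persister cells and had 0 UMIs in both parental sums. SPANXC and, outside the 10, SPANXB1, sperm-associated antigens, were 40.8 against 15.4 CPM and 198 against 82.3 CPM, and near-identical copies make these 2 values uncertain. The parental log2 folds of IGFBP4, NNMT and TXNRD2 were 0.19, 0.24 and 0.19, against 1.45, 1.36 and 1.33 in the persister library.

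The largest difference in molecules was TIMP1, a secreted inhibitor of metalloproteases (chromosome X, 47582313 to 47586789, plus strand). It was 2910 CPM in persister NGFR-positive and 8101 CPM in matched negative cells, a ratio of 0.359 (0.354 to 0.364). Parental cells held 325 and 365 CPM, a log2 fold of -0.17, so both persister sums lay above both parental sums. Per cell, thinned to 5000 UMIs, the persister NGFR-positive median was 5 UMIs (quartiles 2 and 10) and the matched negative median 21 UMIs (6 and 59). The ranges overlapped, from 0 to 286 and from 0 to 335 UMIs, and 4.95% and 1.85% of these cells had no TIMP1 UMI. Parental cells had a median of 1 UMI in both sets and reached 14 and 18 UMIs, so single cells of the libraries overlapped as well.

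Among the 10 genes with the lowest persister fold were ACPP, PTPRZ1, RGS2 and TFPI2. The first, prostatic acid phosphatase, was 15.0 against 61.5 CPM (log2 fold -1.97), and PTPRZ1, a receptor phosphatase of glia, 18.9 against 67.8 CPM (-1.79). RGS2, a regulator of G protein signalling, was 19.2 against 58.4 CPM, and TFPI2, a protease inhibitor of the matrix, 449 against 961 CPM. FERMT1, the integrin adaptor kindlin 1, was 567 against 1183 CPM, LYPD3 17.4 against 46.5 CPM and TAGLN3 79.5 against 174 CPM. In parental cells ACPP had 0.426 against 0.285 CPM (2 and 4 UMIs) and PTPRZ1 1.07 against 3.20 CPM (5 and 45 UMIs), while FERMT1 was 72.3 against 64.5 CPM. S100A1, a calcium-binding protein used as a melanoma marker, was lower in both libraries, with a ratio of 0.459 (0.407 to 0.517) in persister and 37.1 against 55.0 CPM in parental cells.

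**Figure D3:**
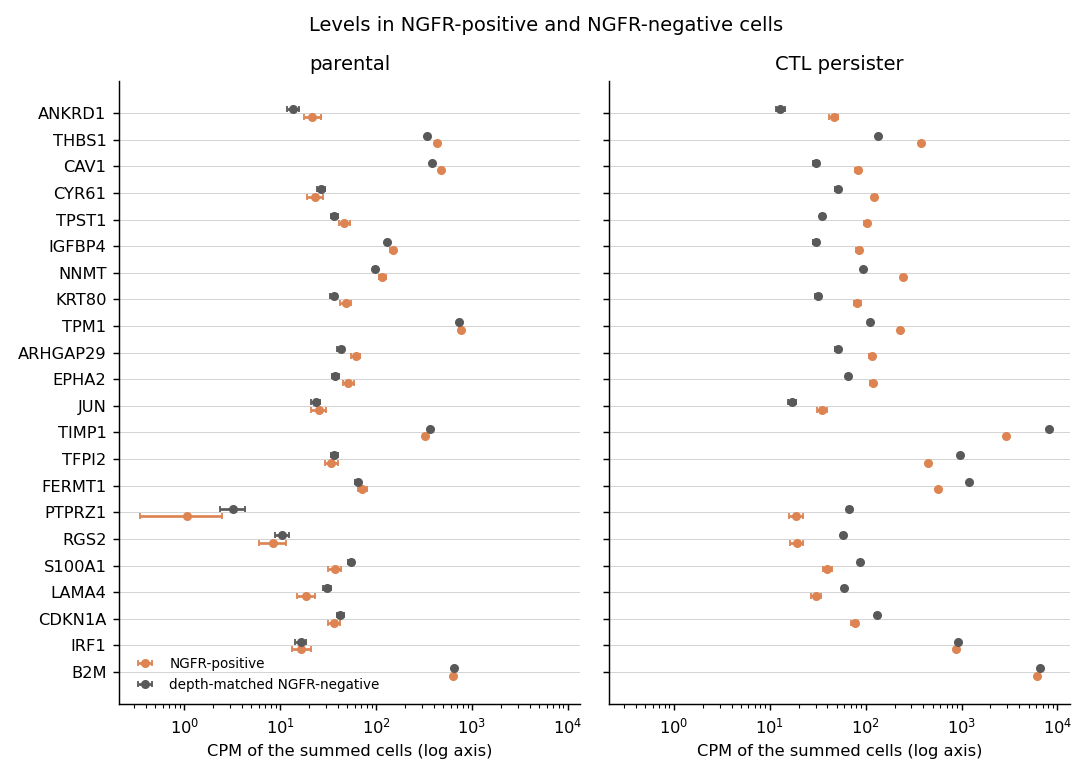
Level of 22 genes (CPM, log axis) in NGFR-positive (orange) and depth-matched NGFR-negative (grey) cells of the parental (left) and CTL persister (right) library, with bars for 95% Poisson intervals. Many pairs of points lie closer in the parental than in the persister panel, as for THBS1 (430 and 340 against 377 and 135 CPM). Parental pairs that lie apart include PTPRZ1 (1.07 and 3.20 CPM), ANKRD1 (21.7 and 13.6 CPM) and LAMA4 (18.8 and 30.8 CPM). IRF1 and B2M lie close in both panels.

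NGFR and TIMP1 lay apart within the persister library, cell by cell. Genes and ranges in this paragraph were chosen after their values had been seen. In thinned persister cells the share with an NGFR UMI was 8.25% (6.79 to 9.91%) at 0 to 4 TIMP1 UMIs, 6.67% at 5 to 9, 3.35% at 10 to 19, 1.70% at 20 to 39, 0.655% at 40 to 59 and 0.904% (0.482 to 1.54%) at 60 or more. Parental cells, all but 2 of which held fewer than 20 TIMP1 UMIs, had 2.65% at 0 to 4 and 2.19% at 5 to 9. By THBS1 the persister share was 1.89% in cells without a THBS1 UMI, 5.72% at 1, 7.05% at 2 to 3 and 13.1% (9.93 to 16.7%) at 4 or more, against 1.82% and 3.18% at the ends of the parental range. By CAV1 it was 2.96% at 0 and 11.9% (7.22 to 18.2%) at 2 or more UMIs in persister cells, and 1.61% and 3.29% in parental cells.

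**Figure D4:**
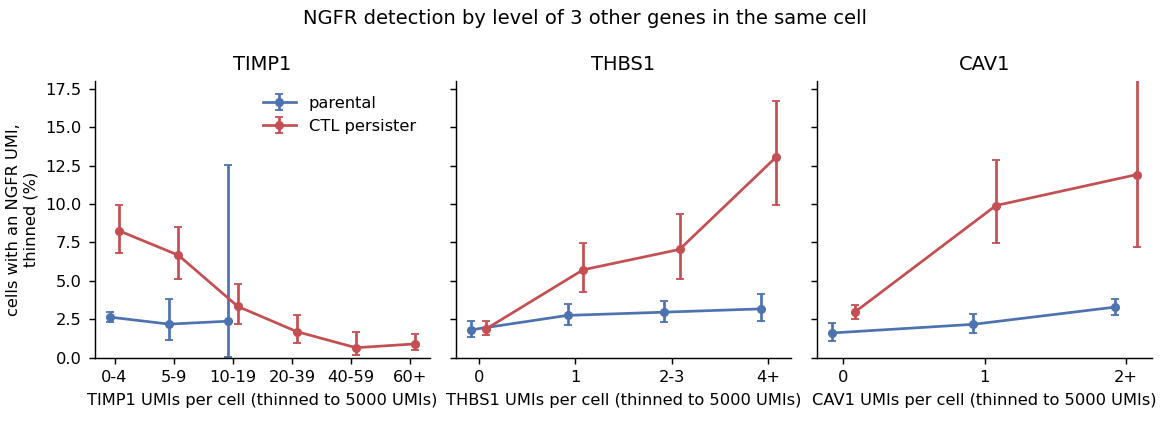
Share of cells with an NGFR UMI (percent, cells thinned to 5000 UMIs) by the number of TIMP1, THBS1 or CAV1 UMIs in the same cell, for each library, with 95% exact binomial intervals. In persister cells the share goes from 8.25% to 0.904% along TIMP1 and from 1.89% to 13.1% along THBS1, and the parental lines stay between 1.61 and 3.29%.

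The number of NGFR UMIs followed the same order in part. Persister cells with 0 (matched), 1, 2 and 3 or more NGFR UMIs (1515, 395, 77 and 33 cells) held 8101, 3355, 1260 and 1980 CPM of TIMP1, so the last group was above the one before it. Median depth in these groups was 14254, 13662, 16091 and 14177 UMIs, and they were not matched to each other. ANKRD1 was 12.9, 35.4, 77.8 and 91.9 CPM over the same groups, TPST1 35.4, 95.7, 119 and 160 CPM, and KRT80 32.2, 76.7, 93.2 and 111 CPM. Of the 10 genes followed in this way that were at least 1.5-fold higher in NGFR-positive cells, 4 (those 3 and NNMT) were higher in each group than in the one before. The other 6 were lower in the last group than in the one before it, as for CAV1 (30.2, 74.5, 124 and 85.1 CPM), THBS1 (135, 339, 521 and 456 CPM) and CYR61 (51.1, 112, 172 and 131 CPM). FERMT1 fell and rose again, at 1183, 564, 479 and 792 CPM. The 10 genes were picked as higher in these same NGFR-positive cells, most of which held 1 NGFR UMI. Their step from 0 to 1 was therefore largely set by the choice.

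When the negative cells were matched on total UMIs and also on the range of TIMP1 UMIs, far fewer persister genes passed 1.5-fold. TIMP1 was then 2910 against 3056 CPM, and 10 of 7434 measured genes were 1.5-fold or more above the matched level (0.135%) and 7 as far below (0.0942%), in place of 145 and 106. All 10 higher genes and 6 of the 7 lower ones were among the earlier calls. The 10 higher were ANKRD1 (46.6 against 25.7 CPM, ratio 1.81, 1.59 to 2.06), IGFBP4 (1.75), TPST1 (1.62), CDC42EP1 (1.62), RHOF (1.58), TNFAIP2 (1.57), TXNRD2 (1.56), CAV1 (1.55), NMT2 (1.55) and PDLIM2 (1.51). CDC42EP1 and RHOF belong to small GTPase signalling to actin, NMT2 attaches myristate to proteins, and PDLIM2 is a PDZ and LIM domain protein. THBS1 kept a log2 fold of 0.55 in place of 1.47, KRT80 0.54 in place of 1.32 and TPM1 0.33 in place of 1.04. The 7 lower were STC1 (5.55 against 14.9 CPM), RGS2, ACPP, LPAR6, ERO1B, SH2D2A and ABHD17C. For parental cells, where TIMP1 varied little, the same matching gave 11 genes higher (0.147%) and 11 lower (0.147%).

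Genes that differed the same way in both libraries were few. The criterion was a level at least 25% higher, or at least 20% lower, in both, with both intervals of the ratio leaving out 1. It was met by 29 of 6792 genes in the higher direction (0.427%) and by 19 in the lower (0.28%), against 8 and 6 genes that met it in opposite directions. Which genes met it depended on the cells compared. Of the 29 higher genes 14 met it again with cells of at least 10000 UMIs, 14 with thinned cells, 7 with at least 2 NGFR UMIs and 14 after TIMP1 matching. Of the 19 lower genes these numbers were 12, 9, 4 and 5. Across the 6792 genes the log2 folds of the 2 libraries had a Pearson r of 0.19, given as a description, since genes are not replicates. Of 122 genes at least 1.5-fold higher in persister NGFR-positive cells and measured in both libraries, 104 had a parental log2 fold above 0, as did 52.2% of all 6792 genes.

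The 29 shared higher genes are described by what they are known to do. ARHGAP29, a GTPase-activating protein, was 117 against 51.1 CPM in persister and 61.2 against 43.0 CPM in parental cells. SRGAP1, a GTPase-activating protein of Slit and Robo signalling, had log2 folds of 0.74 and 0.48, and RHOF, a small GTPase that forms filopodia, 0.98 and 0.45. EPHA2, an ephrin receptor, was 119 against 65.2 CPM and 51.6 against 37.5 CPM, and PRICKLE1, of planar cell polarity, had log2 folds of 0.95 and 0.45. L1CAM, a neural adhesion molecule, was 15.5 against 11.6 CPM and 17.9 against 11.8 CPM. HHEX, a homeobox factor, had the largest smaller fold, 1.32 in persister and 0.71 in parental cells. DKK1, a secreted WNT inhibitor, was 111 against 64.4 CPM and 61.2 against 45.3 CPM. TGIF2, a repressor of TGF-beta signalling, had log2 folds of 0.64 and 0.56, CARD10, a scaffold of NF-kB signalling, 0.70 and 0.53, and BCL2L1, the antiapoptotic BCL-XL gene, 0.66 and 0.34. GDA, guanine deaminase, RALGPS2, a RAL exchange factor, ERCC6, a DNA repair factor, and NMT2 were between 0.47 and 0.90 in each library.

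The 19 shared lower genes were led by LAMA4, a laminin chain of the basement membrane, at 30.5 against 59.7 CPM in persister and 18.8 against 30.8 CPM in parental cells. CREM, a cAMP-responsive transcription factor, was 72.1 against 127 CPM and 20.3 against 31.7 CPM. GNAS, which encodes the stimulatory G protein alpha subunit that raises cAMP, was 544 against 684 CPM and 1073 against 1483 CPM, and RAMP1, a subunit of the CGRP receptor, which acts through that G protein, 55.3 against 100.3 CPM and 40.7 against 57.5 CPM. Per parental cell, thinned, GNAS had a median of 4 UMIs in NGFR-positive and 6 in matched negative cells. VGF, a secreted neuropeptide precursor, had log2 folds of -0.74 and -0.45, RORB, a nuclear receptor, -0.46 and -0.65, and SP3, a GC-box factor, -0.61 and -0.40. FRMD8, PITPNC1, CBR3, INPP5A, KHDRBS3, LSR, ANKH and MINPP1 lay between -0.71 and -0.35 in both libraries.

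FLG, TFAP2B, PRRX1 and TESC differed in parental cells and had a persister mean below the limit of 10 CPM. FLG, filaggrin, was 42.6 against 27.0 CPM in parental and 1.39 against 1.44 CPM in persister cells. TFAP2B, a neural crest transcription factor, was lower, at 9.81 against 20.7 CPM (ratio 0.474, 0.339 to 0.648), and 1.77 against 2.496 CPM in persister cells (14 and 59 UMIs). PRRX1, a mesenchymal homeobox factor, was 31.1 against 46.7 CPM in parental and 3.66 against 4.91 CPM in persister cells. TESC, a calcium-binding protein, was lower in both libraries, at 16.4 against 26.9 CPM in parental (log2 fold -0.68) and 5.30 against 11.4 CPM in persister cells (-0.97). GAGE1, a cancer-testis antigen, was 38.4 against 25.1 CPM in parental and 81.1 against 61.3 CPM in persister cells, with near-identical copies that make it uncertain.

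Neurotrophin ligands and co-receptors of NGFR were mostly below the limit of 10 CPM, while most of its adaptors and cleavage enzymes were measured. SORT1, the sortilin co-receptor, was 3.41 against 2.96 CPM in persister and 7.25 against 7.33 CPM in parental cells. Among the 4 neurotrophin ligands only BDNF was measured, at 39.2 against 27.4 CPM in persister cells (311 and 648 UMIs) and 2.98 against 4.20 CPM in parental cells, and NTF3 was at 0. Of 15 measured adaptors and effectors of NGFR in the persister library 0 were higher and 1 lower, where 1.95% of all measured genes were higher and 1.43% lower. BEX3, which binds the death domain of NGFR, was 154 against 137 CPM, and MAGED1, also known as NRAGE, 17.5 against 18.9 CPM. Of the sheddases and gamma-secretase subunits that cut NGFR, 0 of 6 measured passed 1.5-fold. ADAM10 was 44.4 against 39.6 CPM.

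The median of the neural crest stem-like list lay near that of all genes. In the persister library 15 of 36 genes were measured, of which CNN3 alone was at least 1.5-fold higher while 2 were lower, against 1.95% and 1.43% of all measured genes, and the median log2 fold was -0.03. S100B, a glial and melanocytic calcium-binding protein, was among the lower at 38.0 against 60.7 CPM. The summed level of the whole list, in which abundant genes weigh most, was higher in persister NGFR-positive cells. It was 2097 against 1750 CPM (ratio 1.20, 1.18 to 1.22), and in parental cells 1625 against 1593 CPM. AQP1, GFRA2, RXRG and FOXD3, markers or factors of that state, had 1, 0, 1 and 50 UMIs in persister and 4, 1, 4 and 7 UMIs in parental NGFR-positive cells. FOXD3 was lower than in matched negative cells, at 6.31 against 9.35 CPM in persister and 1.49 against 2.63 CPM in parental cells. SOX2 was 1.77 against 1.69 CPM in persister and 17.1 against 18.1 CPM in parental cells. Of 27 measured genes of the dedifferentiated and invasive state, 5 were higher and 2 lower, against the same shares (median 0.14), with JUN, an AP-1 subunit, at 34.8 against 17.0 CPM. AXL, a receptor kinase of that state, was 51.5 against 44.2 CPM in persister and 38.8 against 35.5 CPM in parental cells. MITF, the melanocyte master regulator, was 10.5 against 6.60 CPM in persister cells, a small level in both sets, and 13.6 against 13.4 CPM in parental cells. Of 6 measured melanocyte genes 0 were higher and 1 was lower.

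Few interferon response and antigen presentation genes passed 1.5-fold between NGFR-positive and negative cells of the same library. In the persister library the type I interferon and MHC class I lists nevertheless lay mostly below 0. In persister cells the interferon-gamma list had 0 of 26 measured genes past 1.5-fold in either direction and a median of -0.08, and the MHC class I list 0 of 20 with -0.12. The type I interferon list had 0 of 31 higher and 2 lower, with a median of -0.27, where the median of all measured genes was 0.04. Only 3 of these 31 genes had a log2 fold above 0, and the list summed to a ratio of 0.888 (0.875 to 0.902). For MHC class I 6 of 20 lay above 0, and the summed ratio was 0.901 (0.895 to 0.907). IRF1, an interferon-induced factor, was 881 against 926 CPM. B2M, which pairs with every MHC class I heavy chain, was 6160 against 6629 CPM in persister cells, with a median of 31 UMIs per thinned cell against 34. HLA-B was 2743 against 3288 CPM, and its reads can be shared with other HLA genes. CD274, the PD-L1 checkpoint ligand, was 24.5 against 19.6 CPM (ratio 1.247, 1.05 to 1.48). Over all measured genes 1.95% were higher and 1.43% lower. Of 20 measured NF-kB and TNF genes 3 were higher and 0 lower, and of 15 p53 targets 0 were higher and 2 lower, CDKN1A, the p21 cell cycle inhibitor, among them at 76.7 against 131 CPM.

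**Figure D5:**
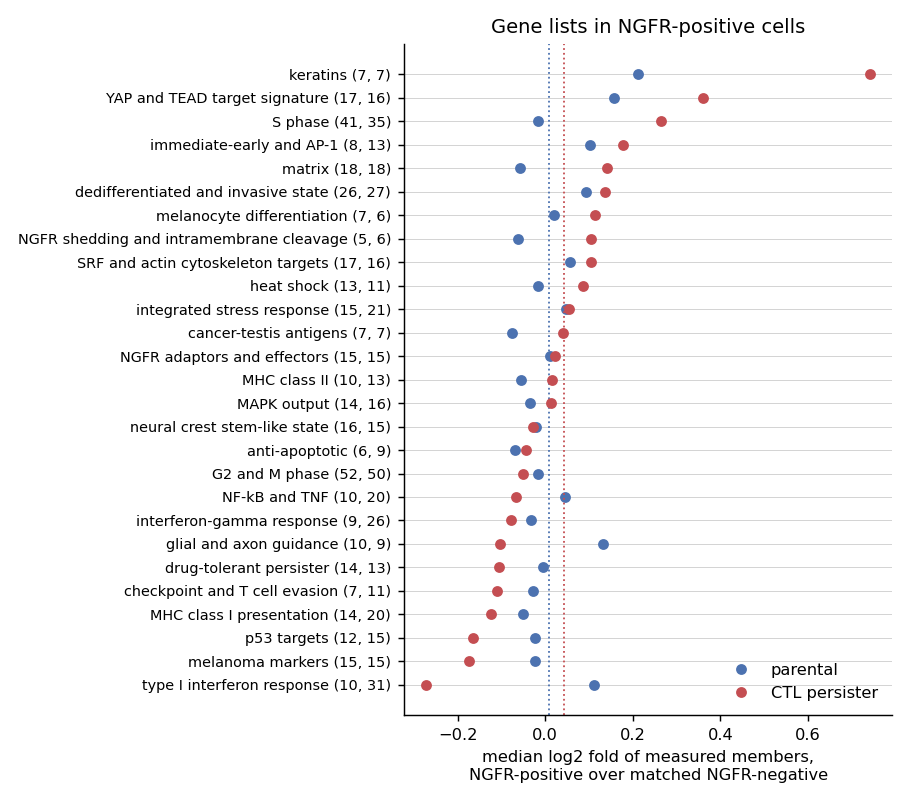
Median log2 fold of the measured members of each gene list, NGFR-positive over matched NGFR-negative cells, for the parental (blue) and CTL persister (red) library, with the number of measured members in each library in brackets and dotted lines at the median over all measured genes. Keratins (0.21 and 0.74) and YAP and TEAD targets (0.16 and 0.36) lie to the right, and the type I interferon list (0.11 and -0.27) lies left in the persister library only.

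Cell cycle phases of NGFR-positive cells, scored on thinned cells of both libraries together, differed in the persister library. S phase held 25.1% of NGFR-positive (21.4 to 29.2%) and 15.4% of matched negative persister cells (13.6 to 17.3%), while G2/M held 24.0% and 34.0%. G1 held 50.9% and 50.6%. Parental S phase held 31.8 and 28.8%, and G2/M 63.9 and 66.7%, with intervals that overlap. Parental G1 held only 4.32 and 4.47%. A phase here is a label from gene scores and not a measured cell cycle position. Against all persister NGFR-negative cells the G2/M share differed less, at 27.2%. Of 35 measured S phase genes 2 were higher, against 1.95% of all genes, UNG, which removes uracil from DNA, at 18.4 against 10.3 CPM and CDCA7 at 15.0 against 8.04 CPM, and the median was 0.26. MKI67, a proliferation marker, was 128 against 157 CPM in persister and 315 against 319 CPM in parental cells. Among thinned persister cells 5.48% of S, 3.94% of G1 and 2.40% of G2/M cells had an NGFR UMI. Matching and thinning made depth alike in the NGFR-positive and matched negative cells. Unthinned calls of the same persister cells placed 21.0 and 11.3% in S and 28.3 and 40.9% in G2/M. Free RNA also enters such phase calls, and its part in this difference, with any part of depth that remains, was not tested.

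Differences between the libraries were compared in NGFR-positive and in NGFR-negative cells. From parental to persister NGFR-positive cells 592 of 7597 measured genes were higher by 2-fold or more (7.79%) and 512 were as far lower (6.74%). Between the matched negative cells it was 637 (8.42%) and 630 (8.33%) of 7563. Of the genes measured in both sets of cells, 488 were higher in both, 85.3% of those of NGFR-positive and 82.7% of those of negative cells. In the other direction 413 were lower in both, 84.3% and 66.5% of them. All 23 measured interferon-gamma genes were at least 2-fold higher in persister NGFR-positive cells, with a median log2 fold of 3.97, against 4.09 in negative cells. In NGFR-positive cells IRF1 went from a parental 16.6 CPM to 881 CPM, and B2M from 638 to 6160 CPM. TPM1 was 767 and 229 CPM, and TIMP1 325 and 2910 CPM, in the same sets.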

How the data were processed

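The deposited files hold raw UMI counts, whole numbers for each gene and barcode, per the file headers. Cell Ranger 3.1.0 and GRCh38 are named in the submitters' processing notes, 10x Chromium 3' v3 chemistry in the labels' protocols, while no source used here names the annotation release. The parental library held 88214007 UMIs and the persister library 80802724. The depth limit left out 1657 parental and 1201 persister barcodes, the mitochondrial limit 0 and 1, and the T cell rule 0 and 45. Sums, CPM, exact Poisson, Clopper-Pearson and conditional binomial intervals (95%) were computed in Python 3.11.15 with scipy 1.17.1, phases in scanpy 1.11.5, TMM factors in edgeR 4.0.16. The steps were tested on simulated data. A count of 0 was taken to allow 3 counts. Members, 29 gene lists, 4 further lists, genes and comparisons were chosen with earlier results of these data known. Named genes are the 10 per library and direction with the largest log2 fold at a mean of 20 CPM or more, 15 per direction shared by both libraries, up to 3 per list and a fixed set. CYR61, CTGF, MYOF, CRIM1, NUAK2, KRT14, LCE1E, SPRR2D, BDNF and the genes left after TIMP1 matching were named after their values were seen. Chromosome positions are from GENCODE 29, matched for 33456 of 33538 genes. Alternatives were all negative cells, 2 NGFR UMIs, 10000 UMIs, thinning, phase or TIMP1 matching (the last added after seeing the data), TMM, the pseudocount, the low value filter, a stricter T cell filter and a 10% mitochondrial limit.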

Additional observations from a re-analysis of the deposited data

Results flagged for a closer look

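Genes measured at 20 CPM or more are listed here when NGFR-positive cells lay at least 25% above their matched negative cells in 1 library and at least 20% below in the other, with both counting intervals leaving out 1. With 1 library per group the difference between the libraries was not tested. HES1, a target of Notch, had a log2 fold of 0.31 in parental and -0.83 in persister cells, a difference of -1.14. JUNB, an AP-1 subunit, had 0.38 and -0.34, a difference of -0.72. S100A2, a calcium-binding protein, had 0.37 and -0.39, a difference of -0.76. OGDH, of the citric acid cycle, had 0.39 and -0.47, a difference of -0.86. PRKAR1B, a regulatory subunit of the cAMP-dependent kinase, had 0.41 and -0.33, a difference of -0.74. In the other direction, CEP63, a centrosome protein, had -0.34 and 0.41, a difference of 0.75. GTF2H2C, a copy of a transcription factor IIH gene whose reads near-identical copies can share, had -0.35 and 0.52, a difference of 0.88.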

How the results depend on the processing

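Counting error limits genes under 20 CPM, and 1 library per group limits every statement, since no alternative adds a replicate. No paired analysis was possible because each group has 1 library. Of the values for named genes, 2941 stayed within their counting interval, 368 moved and 3 reversed, most often when at least 2 NGFR UMIs were required. The cause of each change below was not tested, except where fewer or more genes or cells were counted by construction.

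Against all NGFR-negative cells 4 parental genes were higher, the parental S phase and SRF medians were -0.067 and 0.030, and the persister G2 and M median was 0.093. The difference in the S share was -1.70 points and that in the G2/M share 2.03 points in parental and -3.19 points in persister cells, where the matched values were 3.03, -2.88 and -10.0 points.

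With at least 2 NGFR UMIs, 884 parental genes were higher and 710 lower from 32 cells, 355 and 274 in the persister library, and 44 higher in both. SPANXB1 was -0.48 and KHDRBS3 0.16 in the parental library, both reversed. The parental medians were -0.11 for NGFR adaptors, 0.21 for the neural crest list, -0.12 for melanocyte differentiation, 0.54 for NF-kB and TNF, 0.36 for the anti-apoptotic list, 0.27 for MAPK output, 0.11 for p53 targets, -0.34 for matrix, -0.15 for S phase, 0.35 for G2 and M phase and 0.16 for the drug-tolerant persister list. The persister medians were -0.17 for MHC class II and -0.13 for G2 and M phase. The phase differences were -17.7 (S) and 14.6 points (G2/M) in parental, and 14.9 and -15.2 points in persister cells. The share of cells was 0.352% in parental and 1.87% in persister cells.

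With at least 10000 UMIs, 30 parental genes were higher and 21 lower, the parental interferon-gamma and G2 and M medians were -0.16 and 0.011, the parental phase differences -1.55 (S) and 1.89 points (G2/M), and the shares 7.53% and 10.7%. With cells thinned to 5000 UMIs, 67 parental genes were higher and 69 lower, 244 and 180 in the persister library, the parental MHC class II and G2 and M medians were -0.17 and -0.043, and the shares 2.62% and 3.78%.

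Matched on phase, 20 parental genes were higher, the G2 and M medians were 0.018 in parental and 0.12 in persister cells, and the persister S phase median 0.087. Matched on TIMP1, 10 persister genes were higher and 7 lower, 15 were higher and 5 lower in both libraries, and LINP1 was reversed in persister cells at -0.0086. The persister medians were then -0.044 for melanoma markers, -0.080 for the type I interferon list and 0.055 for S phase. With TMM factors the parental G2 and M median was -0.040. A pseudocount of 0.1 gave 16 higher parental genes.

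At a mean of 30 CPM or more, 3 parental genes were higher and 0 lower, 74 and 46 persister genes, and 13 and 5 in both, with 335 and 262 genes 2-fold higher or lower between the libraries in NGFR-positive and 357 and 329 in negative cells. With no filter it was 373 and 374 parental, 465 and 455 persister, and 50 and 35 in both.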
